A study of Mus musculus with 16 samples.

Results

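The genes described here are 8 Eph receptors and ephrins known for sorting cells along the intestinal crypt: the receptors Ephb2, Ephb3, Ephb4, Epha2 and Epha4 and the ligands Efna1, Efnb1 and Efnb2. They were chosen by name, and their probes were found by the gene symbol of the platform annotation. Of the 8 genes, 7 had a probe on the array, 1 probe each, and 6 passed the filter on dim probes and were tested among 10607 genes. Ephb2 had no probe in the table and is not analysed here. Ephb3 had a probe that was no brighter than the array median on any of the 16 arrays, so it was not tested.

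RNA was measured on 16 Illumina bead arrays, 1 for each sorted fraction of crypt cells from the duodenum of transgenic mice (B6/129S6 mixed), aged 8 to 12 weeks. All mice carried an Lgr5-EGFP reporter, which makes crypt stem cells green, and drank doxycycline at 4 mg/ml in 1% sucrose for 24 h. Doxycycline switched on a red TdTomato fusion transgene. In the BRAF line the transgene was BRAF(V600K), an oncogenic form of the kinase that activates MEK and ERK, and in the control line it was luciferase. The driver of the transgenes is not given in the sources used here. Cells were sorted by red (transgene) and green (Lgr5-EGFP) fluorescence. The BRAF line gave R (red high, green low), NEG (both low), RG (both high) and G (green high, red low) fractions from the same 3 mice. The luciferase line gave RG and G fractions from the same 2 mice, with no array of green-low cells. Mouse numbers are separate animals within a line. The NEG and G fractions also come from doxycycline-treated transgenic animals, so they are cells low for the transgene and not cells of untreated mice. The green gates are called green-high and green-low here, because the Lgr5 transcript did not follow them throughout. Its log2 intensity averaged 6.95 ± 0.40 in R, against 7.82 ± 0.60 in NEG, and 7.47 ± 0.06 in RG, against 8.52 ± 0.65 in G (SD, 3 mice each). It averaged 7.12 ± 0.02 in luciferase RG, against 8.81 ± 0.37 in luciferase G (SD, 2 mice each). Both green-high red groups thus had a lower Lgr5 mean than the green-low NEG group.

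Eph receptors are receptor tyrosine kinases whose ligands, the ephrins, are tied to the surface of the neighbouring cell. Binding signals into both cells, and most often it makes them adhere less or repel each other. A-type ephrins are held by a lipid anchor and bind mainly EphA receptors, while B-type ephrins cross the membrane and bind mainly EphB receptors, with EphA4 able to bind both. In the intestine, Wnt signalling at the crypt base maintains EphB2 and EphB3, and ephrin-B1 and ephrin-B2 are more abundant towards the villus. In mice without EphB2 and EphB3, proliferative, Paneth and differentiated cells lose their ordered positions.

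The promoters of Efnb2, Efnb1 and Epha2 are shown because these genes had the widest ranges over the arrays or the largest red-gate differences of the tested members. Each window holds the 250 bases before the annotated start, from RefSeq with build GRCm38.p6, written 5′ to 3′ on the strand of the gene. Capitals mark CpG dinucleotides. The windows are chr8:8661243-8661492 on the minus strand for Efnb2, chrX:99135811-99136060 on the plus strand for Efnb1 and chr4:141300971-141301220 on the plus strand for Epha2.
Efnb2: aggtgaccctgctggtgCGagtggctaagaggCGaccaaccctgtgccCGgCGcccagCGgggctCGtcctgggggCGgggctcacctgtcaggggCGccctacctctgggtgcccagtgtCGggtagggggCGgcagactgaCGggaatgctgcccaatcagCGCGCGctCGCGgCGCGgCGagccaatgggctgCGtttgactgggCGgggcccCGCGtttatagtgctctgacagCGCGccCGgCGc
Efnb1: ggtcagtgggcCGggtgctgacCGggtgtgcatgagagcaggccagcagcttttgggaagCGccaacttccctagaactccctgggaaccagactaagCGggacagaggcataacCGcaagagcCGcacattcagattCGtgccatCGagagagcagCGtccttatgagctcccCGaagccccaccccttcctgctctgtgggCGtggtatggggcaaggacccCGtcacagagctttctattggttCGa
Epha2: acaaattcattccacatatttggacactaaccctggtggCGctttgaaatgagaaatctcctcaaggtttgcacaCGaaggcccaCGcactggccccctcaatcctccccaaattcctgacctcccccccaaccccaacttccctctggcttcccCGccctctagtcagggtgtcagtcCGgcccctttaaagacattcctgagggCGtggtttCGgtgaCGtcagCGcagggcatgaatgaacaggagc

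The Efnb2 window held 27 CpG dinucleotides, and 91.4% of 32851 mouse promoter windows of this length held fewer. The Efnb1 window held 13 and the Epha2 window 9, with fewer in 68.5% and 59.7% of windows, and the median window held 6. All 3 windows were searched on both strands for the AP-1 letters TGANTCA, the ETS letters CCGGAAGT and the TCF/LEF letters CTTTGAT, which are bound by factors that act downstream of ERK or Wnt signalling. Those letters were in none of the 3 windows, nor in the windows of the other members, and in 6.749%, 2.877% and 3.205% of all windows. The cyclic AMP response element letters TGACGTCA, searched after the Epha2 sequence had been seen, stand 33 bases before the Epha2 start and occur in 1.546% of all windows. None of the other members' windows held them.

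Among the ligands, ephrin-B2 and ephrin-B1 were higher in red than in non-red cells of the green-low compartment of the BRAF line. Efnb2 was 2.75-fold and Efnb1 2.00-fold higher in R than in NEG, and both passed the test. These were 2 of the 6 tested members, against 5.26% of all genes tested that were called higher in this comparison and 12.6% called in either direction. No receptor was called in either red-gate comparison of the BRAF line, and no member was called lower in any of the 9 comparisons. All differences are differences of log2 intensity, with background included, which understates changes of dim genes.

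Efnb2 encodes ephrin-B2, a transmembrane ligand of EphB receptors, of EphB4 above all, and of EphA4. Its log2 intensity was 8.21, 9.45 and 9.85 in R of mice 1, 2 and 3, against 7.58, 7.68 and 7.88 in NEG of the same mice. The groups did not overlap, and R of mouse 1 lay well below R of the other mice. The difference was 1.46 ± 0.35 (SE, 3 mice each; 95% interval 0.71 to 2.20; adjusted p 0.0130, limma with Benjamini-Hochberg adjustment over all genes tested), and 0.00120 with mouse as a block. Within a mouse it was 0.63, 1.77 and 1.97. Fitted on the R and NEG arrays alone, the adjusted p was 0.0567, without mouse 2 it was 0.152 and without mouse 3 it was 0.101. Without the NEG array of mouse 1 it was 0.0507.

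In the green-high compartment Efnb2 lay at 7.95, 8.95 and 9.19 in RG of mice 1, 2 and 3, against 7.24, 7.73 and 7.56 in G. Here too the groups did not overlap and mouse 1 had the lowest red value. The difference of 1.18 ± 0.35 (SE; 95% interval 0.44 to 1.93) did not pass over all genes (adjusted p 0.183, limma), and the call depended on how the mouse entered the model: the adjusted p was 0.0215 with mouse as a fixed block and 0.0600 with mouse as a random block, where the correlation within a mouse is estimated. It was 0.70, 1.22 and 1.62 within the 3 mice. For comparison, 0.801% of all genes passed in RG against G without the block, none of the 6 tested members among them, and 1.89% with it, when Efnb2 was the 1 member called. At an unadjusted p under 0.05, 2 members were past the threshold, against 8.95% of all genes: Efnb2, and Epha2, whose entry into the test rested on its red arrays. Of the 6 tested members, Efnb2 and Epha2 had RG values above every G value, against 8.01% of all genes in this direction. For Epha2 the margin was narrow, with a lowest RG value of 6.59 against a highest G value of 6.55, both below the array median. Because Epha2 entered the test through its red arrays, its lack of overlap is only a description.

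Luciferase RG cells also had somewhat more Efnb2 signal than luciferase G cells, and the difference did not pass. Efnb2 had log2 intensities of 7.91 and 7.89 in luciferase RG of the 2 mice, against 7.32 and 7.38 in luciferase G, without overlap, as for 27.6% of all genes in this direction. The difference was 0.55 ± 0.43 (SE; adjusted p 0.429, limma), and the test covers only 2 mice. Whether the red-gate change was larger with BRAF than with luciferase was tested directly: the BRAF change exceeded the luciferase change by 0.63 (95% interval -0.55 to 1.81), which did not pass (adjusted p 0.665). All 3 BRAF RG arrays lay above both luciferase RG arrays, mouse 1 by a narrow margin (7.95 against 7.91), as did 23.3% of all genes in this direction. This difference was 0.79 ± 0.39 (SE; adjusted p 0.179).

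The order of the Efnb2 group means, in log2 intensity, was BRAF R 9.17 ± 0.85 (SD), BRAF RG 8.69 ± 0.66, luciferase RG 7.90 ± 0.01, BRAF NEG 7.71 ± 0.15, BRAF G 7.51 ± 0.25 and luciferase G 7.35 ± 0.04. Neighbours in this order overlapped except BRAF RG with luciferase RG and luciferase RG with BRAF NEG. R and RG differed by 0.48 (95% interval -0.27 to 1.23; adjusted p 0.487), and NEG and G by 0.20 (95% interval -0.54 to 0.95; adjusted p 1.00). Efnb2 thus had no called difference between green-low and green-high cells, red or not.

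**Figure D1:**
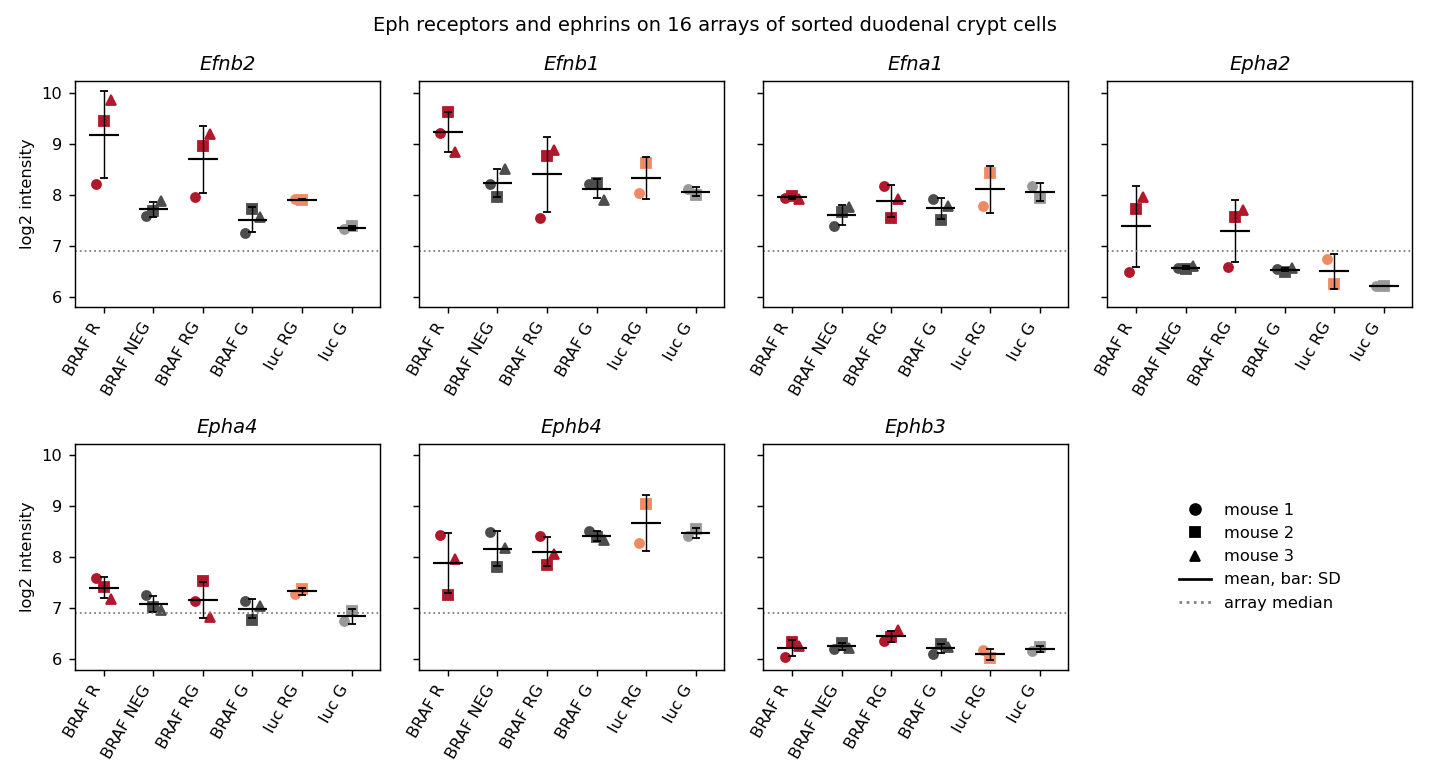
Log2 intensity of the 7 members with a probe on each of the 16 arrays, by group, with 1 symbol for each mouse; the horizontal line is the group mean, the bar the SD and the dotted line the array median. Efnb2 and Efnb1 lie highest in BRAF R, Epha2 is above the array median on 4 arrays of BRAF mice 2 and 3, and Ephb3 is below it on all 16.

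Efnb1, on the X chromosome, encodes ephrin-B1, the other B-type ligand of the crypt. It had log2 intensities of 9.21, 9.63 and 8.84 in R of mice 1, 2 and 3, against 8.20, 7.96 and 8.51 in NEG. The groups did not overlap, but the gap was narrow, with the lowest R array only just above the highest NEG array. The difference was 1.00 ± 0.30 (SE, 3 mice each; 95% interval 0.35 to 1.65; adjusted p 0.0424, limma), and 1.00, 1.67 and 0.33 within the mice. The call is a marginal one: the adjusted p stayed under the threshold in 9 of 20 alternative settings and ran from 0.0267 to 0.337. It was 0.0734 without mouse 1, 0.337 without mouse 2 and 0.0951 with array weights.

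In green-high cells Efnb1 showed no common direction. RG of mice 1, 2 and 3 had 7.54, 8.77 and 8.88, against 8.21, 8.23 and 7.91 in G. RG was thus lower than G in mouse 1 and higher in mice 2 and 3, and the difference was 0.28 (95% interval -0.37 to 0.93; adjusted p 0.891). Luciferase RG had 8.04 and 8.62, against 8.12 and 8.00 in luciferase G, with overlapping groups (difference 0.27, adjusted p 0.683). The BRAF change exceeded the luciferase change by 0.01 (95% interval -1.01 to 1.03; adjusted p 0.994), which did not pass.

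Efnb1 was the member with the largest difference between green-low and green-high red cells. R exceeded RG by 0.83 ± 0.30 (SE; 95% interval 0.18 to 1.48), which did not pass over all genes (adjusted p 0.159), and the within-mouse differences were 1.67, 0.86 and -0.04. The red-gate change in green-low cells exceeded that in green-high cells by 0.72 (95% interval -0.19 to 1.64; adjusted p 0.874). No difference between the compartments is therefore shown for Efnb1, although it was called in R against NEG and not in RG against G.

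Efna1 encodes ephrin-A1, a lipid-anchored ligand that binds EphA2 with preference. It had no called difference in any comparison. Its log2 intensity was 7.93, 7.98 and 7.92 in R, against 7.38, 7.66 and 7.76 in NEG, so that the groups did not overlap. The difference of 0.35 ± 0.20 (SE; 95% interval -0.08 to 0.77) did not pass (adjusted p 0.283). In all, 3 of the 6 tested members (Efnb2, Efnb1 and Efna1) had R values above every NEG value, against 11.9% of all genes. RG had 8.17, 7.54 and 7.92, against 7.91, 7.51 and 7.79 in G, with overlap (difference 0.14, adjusted p 0.929). The highest Efna1 values lay in the luciferase line, where RG had 7.78 and 8.43, against 8.18 and 7.93 in G, and every pair of neighbouring group means overlapped in its arrays.

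Among the receptors, Epha2 had the largest red-gate differences, and its probe was dim outside 4 arrays. EphA2 is a receptor of ephrin-A1 that many epithelia express. Its log2 intensity was 6.48, 7.72 and 7.95 in R of mice 1, 2 and 3, against 6.57, 6.54 and 6.60 in NEG. RG had 6.59, 7.56 and 7.70, against 6.55, 6.49 and 6.55 in G. The array medians lay at 6.89 to 6.91. Only R and RG of mice 2 and 3 were above them, and in mouse 1 neither red fraction differed from its non-red fraction by more than 0.10.

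Epha2 passed the filter on dim probes only through those 4 arrays, so its differences are a description of them. With the non-red groups set at the array median, the Epha2 mean in R was 1.39-fold that in NEG, and in RG 1.30-fold that in G. Neither difference passed (adjusted p 0.121 and 0.489, limma), and in mouse 1 R lay below NEG. These folds compare group means and are not lower bounds of a shown rise. Luciferase RG had 6.73 and 6.26, and luciferase G had 6.21 and 6.21, none above the array median. The BRAF RG mean was 1.31-fold that of luciferase RG set at the array median, and the difference did not pass (adjusted p 0.151, limma). Neither Epha2 nor any other member was called between BRAF RG and luciferase RG, a comparison in which 16.6% of all genes passed.

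Several of the Efnb2 values depended on mouse 1 of the BRAF line. Mouse 1 had the smallest Efnb2 red-gate difference in both compartments and the lowest BRAF RG value. Leaving it out therefore enlarges these differences by selection, and the values without it are a description only. Without it, Efnb2 differed by 1.42 between RG and G (adjusted p 0.0163), by 1.87 between R and NEG (adjusted p 0.000206) and by 1.16 between BRAF RG and luciferase RG (adjusted p 0.00526). Of all genes, 0.556% passed in RG against G without mouse 1, 6.4% in R against NEG and 13.4% between BRAF RG and luciferase RG. Without mouse 2 or mouse 3 no member was called in RG against G, and Efnb2 was not called in R against NEG. With mouse as a block and mouse 1 left out, a setting added after the data were seen, the adjusted p of Efnb2 in RG against G was 0.00631. Epha2 is given no test without mouse 1, since the red arrays that remain are those through which it passed the filter. The R array of mouse 1 also had the lowest correlation with its group (mean Pearson's r across probes 0.940) and the lowest array weight (0.276).

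A list of 8 genes of the ERK response was added after the data were seen. The red-gate difference of mouse 1 was low for some of them and not for others. In RG against G the median within-mouse difference over the 8 genes was 0.38 in mouse 1, against 1.10 and 0.92 in mice 2 and 3, and in R against NEG it was 1.12, against 1.48 and 1.30. Fosl1, a subunit of the AP-1 transcription factor, was low in mouse 1 in both comparisons, at 0.76 and 0.98, against values between 1.93 and 2.58 in mice 2 and 3. Its probe was above the array median only on red BRAF arrays and passed the filter through them, so these differences are a description. Spry4, an inhibitor of the pathway, differed by 0.15 between RG and G in mouse 1, against 1.42 and 0.79 in mice 2 and 3, and Phlda1 by 0.45, against 0.92 and 1.45. In R against NEG mouse 1 lay between the other mice for both. Spry4 differed there by 1.26, against 1.77 and 0.94, and Phlda1 by 1.41, against 1.28 and 1.68. Etv5 went down in RG against G in each mouse (-0.19, -0.59 and -0.52), and Spred1 and Etv4 showed no common direction. Dusp6 and Dusp4, phosphatases that are transcribed downstream of ERK and act back on it, differed in mouse 1 by 1.55 and 1.14 between RG and G and by 2.30 and 1.93 between R and NEG. In mice 2 and 3 the same differences ran from 1.46 to 1.75 for Dusp6 and 1.06 to 1.28 for Dusp4 in RG against G, and from 1.68 to 1.69 and 1.65 to 2.01 in R against NEG. The log2 intensity in RG was nonetheless lowest in mouse 1, at 11.75 for Dusp6, against 13.01 and 12.76 in mice 2 and 3. For Dusp4 it was 8.97, against 9.76 and 9.50. G of mouse 1 was lowest too, at 10.2, against 11.26 and 11.30, for Dusp6. For Dusp4 it was 7.83, against 8.47 and 8.45. Dusp4 also rose in luciferase RG against G (1.56, adjusted p 0.00509, limma), as did Etv5 (1.06, adjusted p 0.0090). For Etv5 the BRAF red-gate change minus the luciferase one was -1.49 (adjusted p 0.0410). The non-red G fractions of the 2 lines differed in these genes too. BRAF G minus luciferase G had a median of 0.92 over the 8 genes, against 0.01 over all genes, and 0 of the 8 were called. What sets mouse 1 apart was not tested.

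**Figure D2:**
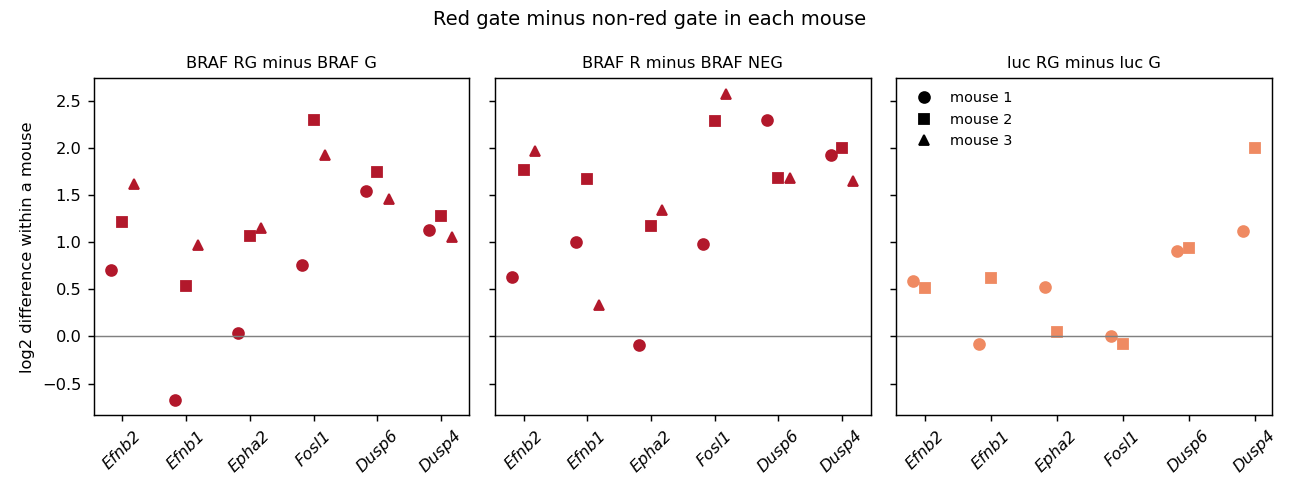
Difference of log2 intensity between red and non-red cells within each mouse, for the 3 members with the largest values and for 3 ERK response genes; each symbol is 1 mouse. In mouse 1 of the BRAF line Epha2 is at 0.04 and -0.10 and Efnb2 and Fosl1 are low, while Dusp6 is at 1.55 and 2.30 and Dusp4 at 1.14 and 1.93.

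**Figure D3:**
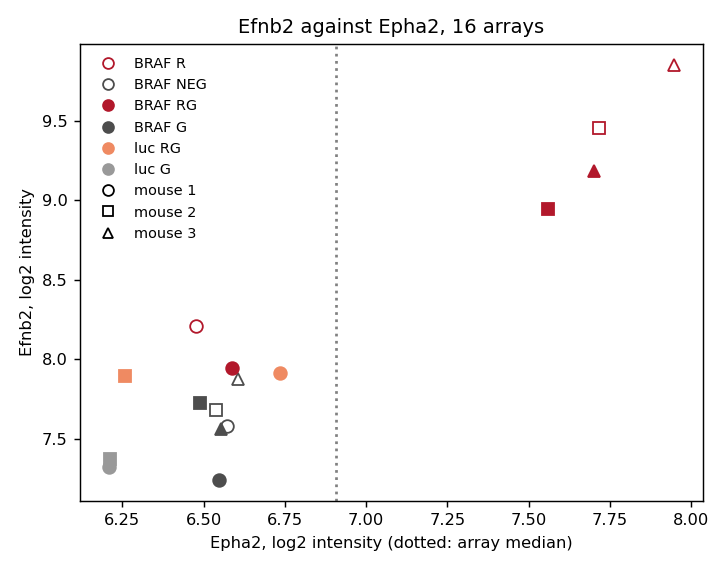
Log2 intensity of Efnb2 against that of Epha2 on the 16 arrays, by group (colour and fill) and mouse (symbol); the dotted line is the highest array median. The 4 arrays of BRAF R and RG from mice 2 and 3 lie apart at the upper right, and the other 12, those of BRAF mouse 1 included, lie left of the median.

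Epha4, which binds ephrins of both types, was near the array median and had no called difference. Its log2 intensity was 7.59, 7.43 and 7.18 in R, against 7.26, 7.04 and 6.97 in NEG, higher in each mouse with overlapping groups (difference 0.31 ± 0.19 SE, adjusted p 0.300). RG had 7.15, 7.53 and 6.83, against 7.14, 6.78 and 7.05 in G (difference 0.18, adjusted p 0.882). The largest Epha4 difference lay in the luciferase line, where RG had 7.29 and 7.39, against 6.74 and 6.95 in G. This 0.49 ± 0.23 (SE) did not pass (adjusted p 0.173), in a comparison that called 11.9% of all genes and no member.

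Ephb4, the main receptor of ephrin-B2 in blood vessels, had negative red-gate differences in the BRAF line, and neither was called. Its log2 intensity was 8.44, 7.27 and 7.97 in R, against 8.50, 7.82 and 8.18 in NEG. RG had 8.42, 7.85 and 8.06, against 8.52, 8.40 and 8.33 in G. Both differences were negative in each of the 3 mice, smallest in mouse 1, but the groups overlapped and neither passed: -0.28 (95% interval -0.86 to 0.31; adjusted p 0.550) for R against NEG and -0.31 (95% interval -0.89 to 0.28; adjusted p 0.850) for RG against G. Lower in every mouse was the case for 26.6% and 22.2% of all genes in these 2 comparisons. Luciferase RG had 8.28 and 9.05, against 8.41 and 8.55 in luciferase G (difference 0.19, adjusted p 0.758), and BRAF RG lay 0.56 below luciferase RG (adjusted p 0.226).

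Ephb3, a Wnt target receptor of the crypt base and of Paneth cells, gave intensities from 65.2 to 95.2 over the 16 arrays, in log2 6.03 to 6.57, all at or below the array median. Its highest group mean in log2 was 6.45 in BRAF RG and its lowest 6.10 in luciferase RG. At this signal no order can be read from them, and a probe that reports little signal does not show that the transcript is absent. With Ephb2 not analysed and Ephb3 dim, the EphB side of crypt positioning rests here on Ephb4 alone.

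**Figure D4:**
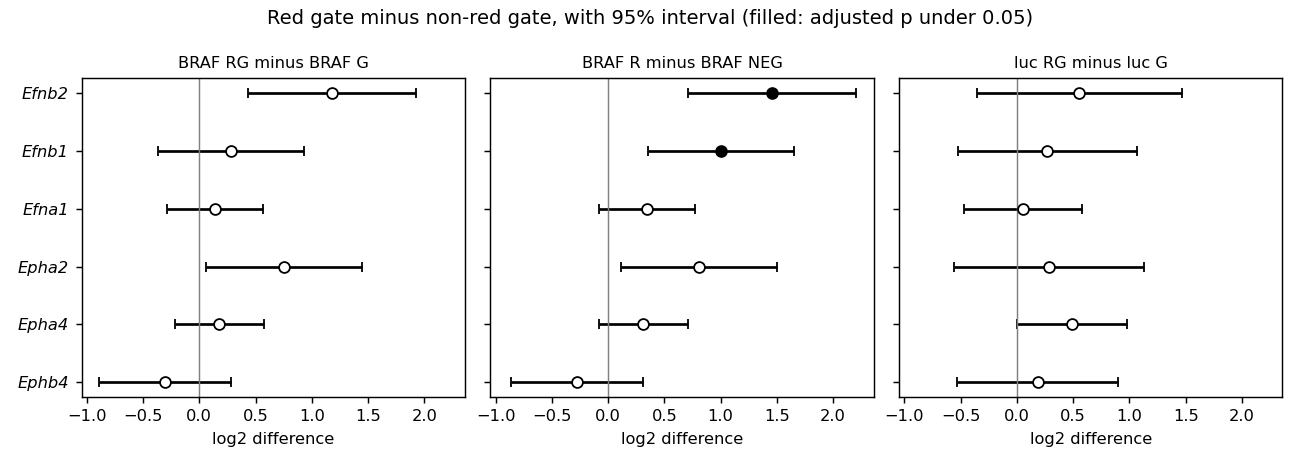
Difference of log2 intensity between red and non-red cells for the 6 tested members in 3 comparisons, with the 95% interval; filled points passed at an adjusted p under 0.05 over 10607 genes. Efnb2 (1.46) and Efnb1 (1.00) are filled in BRAF R minus NEG, and the interval of Efnb2 also lies above 0 in BRAF RG minus G (0.44 to 1.93).

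Over the 6 tested members, 5 differences were positive in R against NEG with a median of 0.58 (-0.01 over all genes), 5 in RG against G with a median of 0.23 (-0.02 over all genes), and 6 in luciferase RG against G with a median of 0.28 (-0.01 over all genes). The change in BRAF red cells beyond that in luciferase red cells had a median of 0.05 over the members and passed for none of them, against 0.481% of all genes. green-low against green-high cells gave no member call either, in NEG against G (2.21% of all genes called), in R against RG (2.21%) or for the difference of the red-gate changes (1.27%). BRAF G against luciferase G called no member and 0.217% of all genes. At an unadjusted p under 0.05 the members past the threshold numbered 3 in R against NEG, against 26.7% of all genes, and 1 each in luciferase RG against G (28.2% of all genes), R against RG (18.9%) and BRAF RG against luciferase RG (31.8%). The 3 in R against NEG include Epha2, and the 1 in BRAF RG against luciferase RG is Epha2. Epha2 passed the filter only through red BRAF arrays, so its part in these counts supports nothing about it. Counts of the remaining comparisons follow. The members past this threshold numbered 0 in NEG against G (7.78%), in BRAF G against luciferase G (7.8%), for the BRAF beyond the luciferase red-gate change (13.2%) and for the difference of the green-low and green-high red-gate changes (6.51%). The luciferase and BRAF lines are different mice, so line and transgene cannot be told apart.

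The pattern of Efnb2 over the 16 arrays was most like those of Csrnp1 (Pearson's r 0.962), Fosl1 (0.957) and F3 (0.956), the gene of tissue factor. Epha2 was most like Bcl3 (0.959), F3 (0.959) and Fosl1 (0.944). F3 averaged 9.25 ± 1.67 in R, against 6.93 ± 0.32 in NEG, and 8.58 ± 1.49 in RG, against 6.65 ± 0.34 in G (mean log2 intensity ± SD, 3 mice each). Efnb1 was most like Ccdc160 (0.937), C77080 (0.900) and Tnni3 (0.874), and Ephb4 most like Pdk1 (0.896), Prkd1 (0.884) and R3hdm1 (0.882). Epha4 was most like Krt24 (0.850), Tfap2e (0.823) and 1700067P10Rik (0.822), and Efna1 most like Sash1 (0.820), BC048644 (0.788) and Gal3st1 (0.772). These values are given as descriptions: arrays share mice and gates, the best of all genes was picked, and for Efnb2 and Epha2 the 4 highest values lie on the red arrays of mice 2 and 3 of the BRAF line. Csrnp1 and Fosl1 were above the array median only on red BRAF arrays, so they came among the ranked genes through those arrays.

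The rest of the family gave little signal. The other 14 Eph receptors and ephrins all had a probe, and 6 were tested: Epha1, Epha3, Epha7, Epha8, Efna4 and Efnb3. None was called in R against NEG, RG against G or luciferase RG against G. Between BRAF RG and luciferase RG, Epha1 was higher by 0.87 ± 0.27 (SE; adjusted p 0.0391), with means of 7.68 ± 0.31 in BRAF RG and 6.81 ± 0.35 in luciferase RG (log2, SD). The other 3 probes of Epha1 did not repeat a difference of that size, with BRAF RG means between 6.90 and 7.23 and luciferase RG means between 6.85 and 7.04. Epha7 was at least 1.83-fold lower in BRAF RG than in luciferase RG (adjusted p 0.0229), while the luciferase RG arrays themselves ran from 7.03 to 8.52. Its brightest probe was above the array median on 5 arrays: 2 of luciferase RG, 2 of luciferase G and 1 of BRAF NEG. It thus passed the filter mainly through the line in which it is higher, and this difference is a description. Its other probes did not repeat a difference of that size. One averaged 6.46 in BRAF RG, against 6.91 ± 1.00 (SD) in luciferase RG. Another went the other way, at 6.54 in BRAF RG against 6.32 in luciferase RG.

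Of 48 listed signalling partners of Ephs and ephrins, 42 had a probe and 37 were tested. In R against NEG 2 rose and 3 fell, 5 of 37 against 12.6% of all genes, so the share called was close to that of all genes. Rin1, which binds EphA4 and promotes its endocytosis, rose by 1.01 ± 0.26 (SE; adjusted p 0.0188), and Sdcbp, the scaffold syntenin that binds the tails of B-type ephrins, by 0.59 ± 0.15 (adjusted p 0.0192). The guanine nucleotide exchange factors Vav1 (-2.60 ± 0.28, adjusted p 1.8e-05), Vav3 (-1.42 ± 0.31, adjusted p 0.0080) and Tiam1 (-1.19 ± 0.26, adjusted p 0.00679) fell. The NEG fraction held leukocyte transcripts, and Vav1 is known from blood cells: 10 of 12 leukocyte markers were lower in R, and their summed intensity was 1763 to 2419 in R, against 19121 to 27336 in NEG. The leukocyte sum overlapped between RG (1347 to 2350) and G (1406 to 1464), where 0 of the 12 markers were called, and 0 were called in luciferase RG against G. Tuft cell markers were lower in all 3 red-gate comparisons in which Vav1 fell. Of 6 tested tuft markers 5 were lower in R (median difference -1.35), 4 in BRAF RG (-1.38) and 3 in luciferase RG (-0.72). Of all genes, 12.6%, 0.801% and 11.9% were called there in either direction. Their summed intensity was 574 to 688 in R, against 997 to 1811 in NEG, 589 to 625 in BRAF RG, against 1347 to 1609.9 in BRAF G, and 812 to 864 in luciferase RG, against 1386.5 to 1415 in luciferase G. No R array had Dclk1 or Pou2f3 above its median. The part of leukocyte and tuft transcripts in the differences of the partners and members was not tested.

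In RG against G 0 partners rose and 1 fell (0.801% of all genes called), Vav1 (-2.02, adjusted p 0.00439). In luciferase RG against G 3 rose and 3 fell, 6 of 37 against 11.9% of all genes. Mmp7, the matrilysin of Paneth cells (2.18, adjusted p 0.0123), Stat3 (0.77, adjusted p 0.0273) and Arhgef15 (0.57, adjusted p 0.0332), the exchange factor ephexin 5, rose. Vav1 (-1.97, adjusted p 0.00224), Tiam1 (-1.42, adjusted p 0.00879) and Cdh1 (-0.79, adjusted p 0.0262), the gene of E-cadherin, fell. Vav1 thus fell in red cells of both lines. The medians over the 37 partners were 0.14 in R against NEG, 0.02 in RG against G and -0.02 in luciferase RG against G.

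Wnt targets were set beside the EphB receptors, since EphB2 and EphB3 are themselves Wnt targets. Of 12 listed, 9 were tested. In R against NEG 0 rose and 2 fell, Axin2 (-1.66 ± 0.28 SE, adjusted p 0.00121), a feedback inhibitor of the pathway, and Znrf3 (-0.58 ± 0.15, adjusted p 0.0213), which removes Wnt receptors. In RG against G none passed, and in luciferase RG against G 3 fell: Lgr5 (-1.69, adjusted p 0.0118), Myc (-1.65, adjusted p 0.0167) and Axin2 (-1.25, adjusted p 0.0282). Their medians were -0.47, -0.31 and -0.47 in these 3 comparisons, against -0.01, -0.02 and -0.01 over all genes. The shares of all genes called in either direction were 12.6%, 0.801% and 11.9%.

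The red gates differed from their non-red gates in cell type markers as well. The summed intensity of 10 enteroendocrine markers was 26527 to 59602 in R, against 13844 to 22264 in NEG. It was 15946 to 18235 in BRAF RG, against 6684 to 11630 in BRAF G, and 41313 to 41795 in luciferase RG, against 8199 to 10212 in luciferase G. Of these 10 markers 7 were higher in R, 4 in BRAF RG and 9 in luciferase RG. In either direction, 12.6%, 0.801% and 11.9% of all genes were called in these comparisons, which applies to the marker counts below too. The 5 tested goblet markers summed to 23863 to 32203 in R, against 14986 to 20138 in NEG. They summed to 11399 to 19980 in BRAF RG, against 6736 to 9633 in BRAF G. In luciferase RG the sum was 32796 to 35951, against 6265 to 6775 in luciferase G. The 7 tested absorptive enterocyte markers summed to 11955 to 20672 in R, against 8470 to 9271 in NEG. They summed to 5012 to 17571 in BRAF RG, against 3601 to 5875 in BRAF G. In luciferase RG they summed to 18520 to 18651, against 7877 to 8084 in luciferase G. Of these 7 markers 1 was higher in R, 0 in BRAF RG and 1 in luciferase RG, Krt20 each time. Of 5 tested Paneth markers 0, 0 and 3 were higher. Of 9 tested crypt stem cell markers 7 were lower in R, 1 in BRAF RG and 7 in luciferase RG, and none was higher. Their summed intensity was 9267 to 11429 in R, against 21819 to 24940 in NEG. For BRAF RG it was 18786 to 24221, against 28035 to 34664 in BRAF G. For luciferase RG it was 13587 to 16353, against 29970 to 30833 in luciferase G. The part of these markers' cells in the members' differences was not tested. Of the endothelial and stromal lists, whose cells are known to carry Efnb2 and Ephb4, 2 of 8 markers each passed the filter: Pecam1 and Esam, and Vim and Acta2. Vim rose in R against NEG (1.25 ± 0.30 SE, adjusted p 0.0122), where Efnb2 and Efnb1 were called, and in luciferase RG against G (at least 1.92-fold, adjusted p 0.0282). Esam fell in R against NEG (-0.88, adjusted p 0.0103), in BRAF RG against G (-1.31, adjusted p 0.00543) and in luciferase RG against G (-0.94, adjusted p 0.0232). The summed intensity of Vim and Acta2 was 1725 to 2268 in R, against 1265.5 to 1512.5 in NEG, and that of Pecam1 and Esam 234.5 to 339 in R, against 331 to 403 in NEG. Their part in the differences of Efnb2 and Ephb4 was not tested. In sorted fractions of bulk RNA, fewer cells of a type and less RNA per cell cannot be told apart.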

How the data were processed

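Per the labels, RNA of the sorted fractions was purified with the RNeasy Micro kit and NuGen labelling was used before hybridisation to bead arrays. The deposited values are linear intensities from 55.7 to 40121 for 25697 probes; GenomeStudio is named in the submitters' processing notes, and the normalization is not given in the sources used here. Sorted values of the 16 arrays agree within 1.2 (array medians 118.9 to 119.9), so all arrays share 1 distribution, and background appears not to have been subtracted. A table of non-normalized signals (32 per-sample columns) was not used, because its column names match no array's labels.

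Log2 of the deposited intensities was tested. Probes had to exceed the median of 2 or more arrays, and the kept probe of highest mean stood for its gene. All 6 groups entered 1 model (R 4.3.3, limma 3.58.1; lmFit, eBayes; 9 comparisons; Benjamini-Hochberg over 10607 genes, threshold 0.05). The script was tested on simulated data. "At least N-fold" sets a dim group at the higher of its own signal and the array median. The labels tie same-numbered arrays to 1 mouse; deviations of 18 of 18 same-mouse pairs in the BRAF line correlated above 0.1 (lowest r 0.124; 0.0457 in the luciferase line). Array number limits the precision; no batch is named. Members, gene lists and tests were chosen with earlier results of these data known. Named genes are the members, called family genes, the largest called partners (up to 5) and Wnt targets (up to 4) of each red-gate comparison, and the 3 genes most like each member. The 12 alternatives are block, samples, weights, filters, probe choice, background, normalization, prior and left-out arrays or mice.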

Additional observations from a re-analysis of the deposited data

How the results depend on the processing

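Of 1107 values of the 54 member differences under alternatives, 1012 kept their direction and their side of the threshold, 15 lost the call, 14 gained one and 66 turned their direction, all 66 of differences that were not called. The count of members called in RG against G was 0, and became 1 with a replicate block, 1 with array weights, 2 with mouse 1 left out and the block, and 0 to 2 without single mice or arrays. In R against NEG it was 2, and became 1 with only those groups fitted, 1 with no filter on dim probes, 1 with the array minimum subtracted, and 0 to 2 without single mice or arrays. Between BRAF RG and luciferase RG it was 0, and 0 to 2 without single mice or arrays. The members behind a count also changed. In R against NEG the 1 member called with only those groups fitted is Efnb1. Without mouse 1, without its R array, or with array weights in R against NEG, 1 of the 2 members counted is Epha2. Without the RG array of mouse 1, the 1 member called between BRAF RG and luciferase RG is Epha2. Epha2 passed the filter only through red arrays of mice 2 and 3, so those counts support nothing about it. Efnb2 in R against NEG was called in 16 of 20 settings. The fixed block changed no other member call. Apart from left-out arrays, the direction turned for Efnb1 in the BRAF minus luciferase red-gate change (-0.0069 with the array minimum subtracted, -0.082 with cyclic loess) and in BRAF RG minus luciferase RG (-0.034 with cyclic loess), and for Efna1 in NEG minus G (0.058 with mouse 1 left out and the block). Without single mice or arrays, where a lone luciferase array was taken to vary like the other groups, these log2 differences turned as well. In RG minus G the range was -0.11 to 0.38 for Epha4, -0.0072 to 0.31 for Efna1 and -0.068 to 0.76 for Efnb1. In R minus NEG the range was -0.55 to 0.035 for Ephb4. In luciferase RG minus G the range was -0.20 to 0.57 for Ephb4, -0.40 to 0.50 for Efna1 and -0.081 to 0.62 for Efnb1. In the BRAF red-gate change minus the luciferase one the range was -0.36 to 0.54 for Efna1 and -0.34 to 0.49 for Efnb1. In NEG minus G the range was -0.0052 to 0.19 for Epha4, -0.28 to 0.058 for Efna1 and -0.14 to 0.30 for Efnb1. In R minus RG the range was -0.49 to 0.090 for Ephb4, -0.25 to 0.55 for Epha2 and -0.12 to 0.23 for Efna1. In the red-gate change in green-low minus that in green-high cells the range was -0.24 to 0.34 for Ephb4, -0.29 to 0.51 for Epha2, -0.038 to 0.38 for Epha4 and -0.10 to 0.76 for Efnb2. In BRAF G minus luciferase G the range was -0.13 to 0.0044 for Ephb4 and -0.0037 to 0.16 for Efnb1. In BRAF RG minus luciferase RG the range was -0.35 to 0.0015 for Epha4, -0.56 to 0.10 for Efna1 and -0.22 to 0.50 for Efnb1. Counts over all genes depended on the setting as well. RG minus G called 85 genes, 61 to 292 with every array of the comparison kept and 17 to 153 without single mice or arrays. R minus NEG called 1332 genes, 601 to 1839 and 612 to 1395. Luciferase RG minus G called 1261 genes, 455 to 1869 and 329 to 1320. The BRAF red-gate change minus the luciferase one called 51 genes, 29 to 221 and 0 to 216. NEG minus G called 234 genes, 226 to 473 and 135 to 239. R minus RG called 234 genes, 0 to 593 and 5 to 416. The red-gate change in green-low minus that in green-high cells called 135 genes, 113 to 159 and 75 to 134. BRAF G minus luciferase G called 23 genes, 16 to 1054 and 1 to 18. BRAF RG minus luciferase RG called 1761 genes, 343 to 1892 and 889 to 1632. The median difference of all genes stayed within 0.072 of 0 in every setting run. Groups of 2 and 3 mice, dim probes and a background that was left in limit what could be detected.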
